A study of Homo sapiens with 2 samples.

Results

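The 33 genes described here encode the protein folding machinery of the endoplasmic reticulum (ER), the sensors of unfolded protein and the route by which misfolded protein is removed. They were taken by gene symbol from a list, out of 26254 gene symbols in an isoform table. The symbols of 32 genes stood in that table, and ERO1L was found under its current symbol ERO1A, which RefSeq lists as the same gene. Of the 33 genes, 31 had a mean over both libraries of at least 1 FPKM (fragments per kilobase of transcript, scaled to library size) and are called measured, as were 11686 genes in all.

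The libraries came from HCT-116, an established human colorectal carcinoma line grown in DMEM with 10% FBS. One library was made from control cells and one from cells given lysophosphatidic acid (LPA, a phospholipid that signals through G protein-coupled receptors) at 10 µM, with RNA taken 24 h later from cells that had been starved of serum. For the control cells starvation was not given in the sources used here, so LPA and any difference in serum cannot be told apart. With 1 library in each condition, every difference below is between 2 libraries, has no replicate check and carries no p-value. Depth was estimated from the smallest FPKM steps as about 16800000 fragments in control cells and 15800000 with LPA. All 7 epithelial markers, among them EPCAM (220 and 223 FPKM in control and LPA) and KRT8 (1208 and 1507 FPKM), were measured. Their summed level was 3000 FPKM in control cells and 3921 FPKM with LPA. The 8 fibroblast markers summed to 5.78 and 4.34 FPKM with 4 at 0 in both libraries, the 8 immune markers to 3.09 and 3.34 FPKM with 3 at 0, and the 6 endothelial markers to 0.105 and 0.280 FPKM. Whether these levels bear on the differences below was not tested.

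Proteins that enter the ER pass through the SEC61 channel and are held by the chaperone BiP, the product of HSPA5, while disulfide isomerases and lectin chaperones help them fold. When unfolded protein accumulates, BiP leaves the sensors IRE1 (ERN1), ATF6 and PERK (EIF2AK3). IRE1 then cuts the XBP1 mRNA in the cytoplasm, ATF6 is cleaved in the Golgi into a transcription factor, and PERK slows translation while it favours that of ATF4. Spliced XBP1 and cleaved ATF6 raise genes of chaperones and of ER-associated degradation, in secretory epithelia as in many tumour lines.

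In the LPA library 3 of these genes stood apart from the others: HSPA5, its cofactor SDF2L1 and the degradation factor HERPUD1. Each was about 1.5-fold higher, and the next gene in order, EDEM2, had a log2 ratio of 0.26. Ratios are given as log2 of LPA over control after adding a pseudocount of 1 FPKM to each, which makes differences of low genes look smaller. SDF2L1 and HERPUD1 passed 1.5-fold (2 of 31 measured members, against 1.45% of all measured genes), no member was 1.5-fold lower (1.54% of all), and none was 2-fold apart in either direction (0.556% of all). No member passed 1.5-fold with a pseudocount of 5 or with the libraries scaled to the same upper quartile. With the leading isoform standing in for a gene, HYOU1 (0.69) passed and HERPUD1 (0.51) did not. The median over the 31 members was 0.08, against 0.00 over all measured genes. Ratios were above 0 in 20 members and below 0 in 11, where 50.2% of all measured genes were above 0. The middle 95% of all measured genes lay between -0.51 and 0.49, and 3 members lay outside it, all on the higher side.

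**Figure D1:**
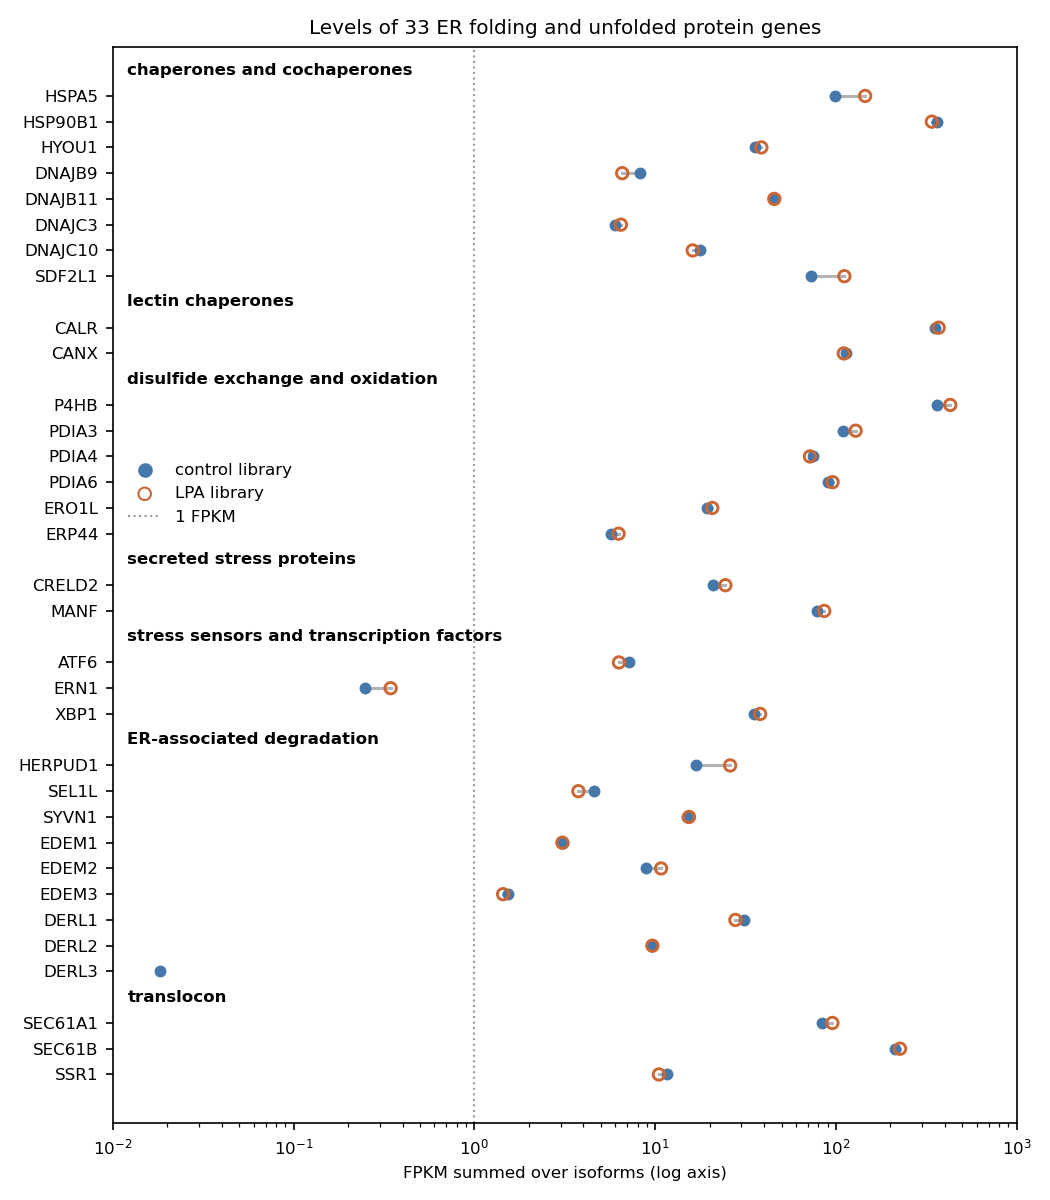
FPKM summed over isoforms (horizontal log axis) for the 33 genes, grouped by role, in the control library (filled blue) and the LPA library (open orange), with 1 value per library. Levels span from DERL3, drawn only for the control at 0.0181 FPKM because it is at 0 in the LPA library, to P4HB at 364 and 429 FPKM, and the gap between libraries is widest for HSPA5, SDF2L1 and HERPUD1 among the genes above 1 FPKM.

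HSPA5 encodes BiP, the Hsp70 chaperone of the ER lumen and the protein that keeps the stress sensors inactive. It lies on chromosome 9 (125234848 to 125241387 in hg38), has 1 isoform in the table, and had 99.1 FPKM in control cells and 145 FPKM with LPA. The log2 ratio was 0.55, a rank of 214 from the top among 11686 genes, and by the estimated depth the values rest on about 6597 and 9083 fragments. Its unadjusted fold of 1.46 lay just under the 1.5-fold limit. SDF2L1, which holds ER client proteins together with DNAJB11 and aids the cycle of BiP, lies on chromosome 22 (21642253 to 21644299). Its level was 73.0 FPKM in control cells and 111 FPKM with LPA, a log2 ratio of 0.60 at rank 152. Its values rest on about 1069 and 1534 fragments.

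HERPUD1 encodes a membrane protein that organises the complex for ER-associated degradation. On chromosome 16 (56932090 to 56943881), it had 16.8 FPKM in control cells and 26.0 FPKM with LPA, with a log2 ratio of 0.60 at rank 155, from about 541 and 787 fragments. Without the pseudocount, the log2 ratios with a 95% counting interval were 0.55 (0.51 to 0.60) for HSPA5, 0.61 (0.50 to 0.72) for SDF2L1 and 0.63 (0.47 to 0.79) for HERPUD1. These intervals cover counting error only, not the spread between cultures. The bounds deposited with the leading isoform are wider and overlapped between the libraries for all 3 genes, at 71.9 to 126 and 105 to 186 FPKM for HSPA5. No measured member had separate bounds of its leading isoform, and 2.76% of all measured genes did.

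**Figure D2:**
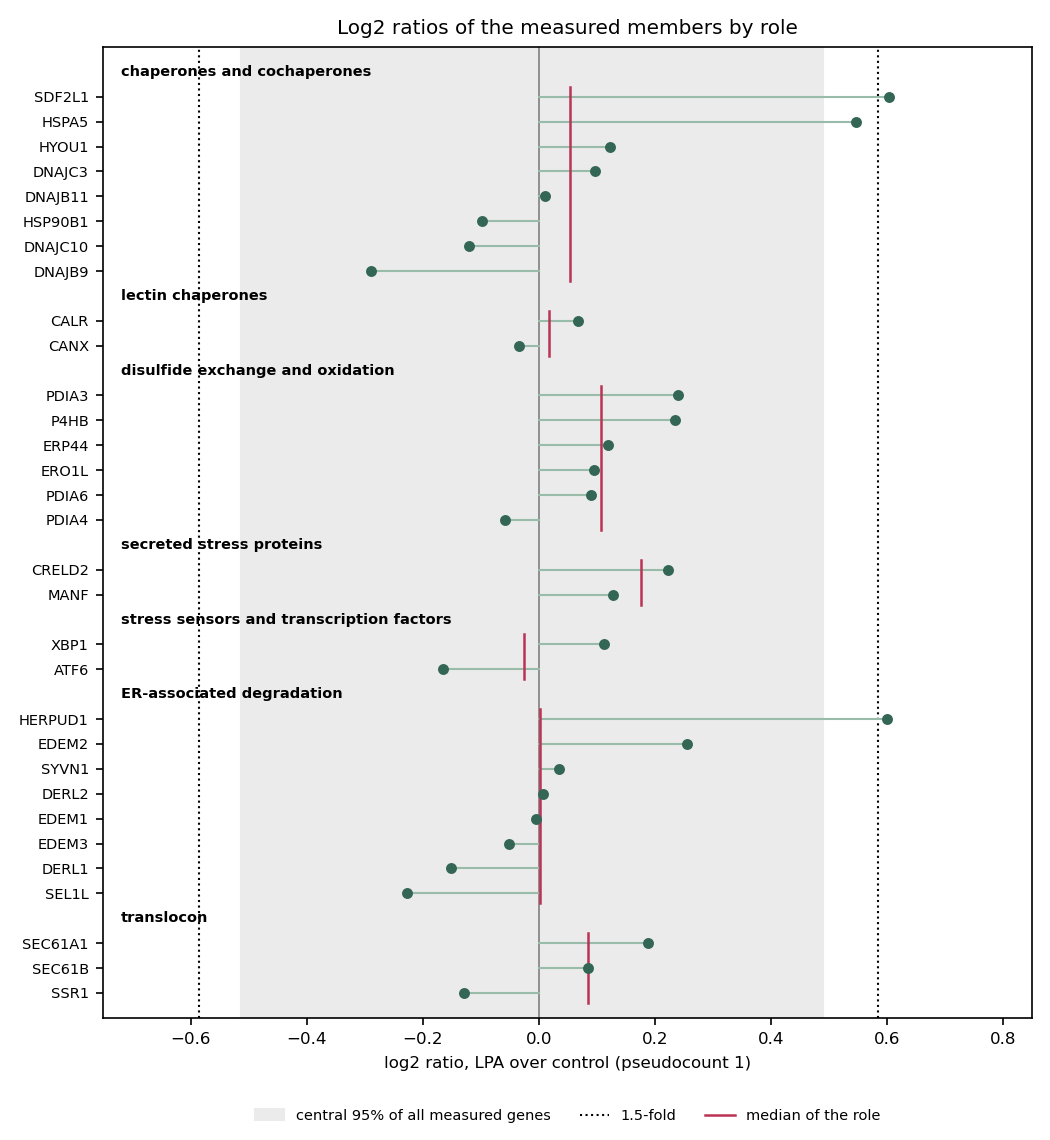
Log2 ratio of LPA over control with a pseudocount of 1 (horizontal axis) for the 31 measured members, 1 point per gene, grouped by role with the median of each role in red, over the band that holds the middle 95% of all measured genes. SDF2L1, HERPUD1 and HSPA5 lie to the right of the band, the other 28 genes lie inside it, and dotted lines mark 1.5-fold.

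The promoters of the 3 leading genes are shown because the known response element of this pathway can be read in each. The ER stress response element (ERSE) is CCAAT and CCACG with 9 bases between them, and ERSE-II is ATTGG and CCACG with 1 base between. NF-Y binds the first part, and ATF6 is among the factors that bind the second. As background, ERSE was defined on promoters of genes such as HSPA5, HSP90B1 and CALR, and ERSE-II on HERPUD1, so finding them there is no independent result. The lines below give positions -200 to -31 from the RefSeq start (position 0) in GRCh38.p14, 5′ to 3′ on the gene's strand, with the fixed bases of exact matches on either strand in capitals. HYOU1, HSP90B1 and XBP1 are added as members with a match and smaller ratios.
HSPA5 (chr9:125241374-125241543, minus strand): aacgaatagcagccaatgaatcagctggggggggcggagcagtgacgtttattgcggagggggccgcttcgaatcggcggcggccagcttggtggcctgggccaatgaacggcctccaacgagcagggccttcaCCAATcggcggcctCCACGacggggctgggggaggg
SDF2L1 (chr22:21642102-21642271, plus strand): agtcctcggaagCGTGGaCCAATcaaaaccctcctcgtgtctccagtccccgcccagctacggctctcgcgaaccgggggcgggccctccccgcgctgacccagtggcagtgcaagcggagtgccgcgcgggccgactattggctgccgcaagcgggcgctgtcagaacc
HERPUD1 (chr16:56931942-56932111, plus strand): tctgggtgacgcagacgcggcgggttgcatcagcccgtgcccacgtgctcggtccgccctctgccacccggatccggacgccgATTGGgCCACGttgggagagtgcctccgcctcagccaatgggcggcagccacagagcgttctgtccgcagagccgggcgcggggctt
HYOU1 (chr11:119057236-119057405, minus strand): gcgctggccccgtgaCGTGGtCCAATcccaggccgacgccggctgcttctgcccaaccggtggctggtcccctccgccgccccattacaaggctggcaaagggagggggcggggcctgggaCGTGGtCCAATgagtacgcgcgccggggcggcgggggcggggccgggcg
HSP90B1 (chr12:103930210-103930379, plus strand): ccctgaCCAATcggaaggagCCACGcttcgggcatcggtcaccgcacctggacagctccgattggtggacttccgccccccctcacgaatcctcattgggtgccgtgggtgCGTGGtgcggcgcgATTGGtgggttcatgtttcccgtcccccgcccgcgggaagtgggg
XBP1 (chr22:28800600-28800769, minus strand): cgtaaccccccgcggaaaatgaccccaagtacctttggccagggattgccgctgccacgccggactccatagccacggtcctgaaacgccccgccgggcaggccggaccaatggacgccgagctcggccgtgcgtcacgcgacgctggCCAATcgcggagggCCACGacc

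HSPA5 held 1 ERSE match, at -66 to -48. SDF2L1 held 1 ERSE-II match on the minus strand at -188 to -178, and HERPUD1 held 1 on the plus strand at -117 to -107. Promoter sequences from 250 bases before to 50 after the start were matched for 30 of the 33 members, and not for PDIA3, DERL1 and DERL3. An exact ERSE on either strand stood in 7 of these 30 (HSPA5, HSP90B1, CALR, CANX, PDIA6, CRELD2 and XBP1). It stood in 0.0916% of the 27305 genes with a promoter, and in 0.159% of the 8793 of them that were measured. ERSE-II stood in 3 of 30 (HYOU1, SDF2L1 and HERPUD1), in 0.0696% of all and in 0.148% of the measured genes. A match of either kind therefore stood in 10 members. TGACGTG, the core of the element bound by XBP1 and ATF6, stood in HYOU1, DNAJC10 and SEC61A1. These are 3 of 30, against 2.40% of all and 3.46% of the measured genes, and in HYOU1 it overlaps the upstream ERSE-II match.

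The 3 genes with the highest ratios were all among the 10 with an ERSE or ERSE-II match, but most genes with a match had small ratios. HSPA5 and HERPUD1 are among the genes on which these elements were defined, so this overlap is no independent result. The 10 ran from -0.10 for HSP90B1 to 0.60 for SDF2L1, with a median of 0.12, and 8 were above 0. The 19 measured members whose window held neither ran from -0.29 for DNAJB9 to 0.26 for EDEM2, with a median of 0.01, and 11 were above 0. HSP90B1 has 2 ERSE matches and HYOU1 has 2 ERSE-II matches, with ratios of -0.10 and 0.12. A match is a string of letters in a 300-base window, so it shows neither binding nor use of the site.

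**Figure D3:**
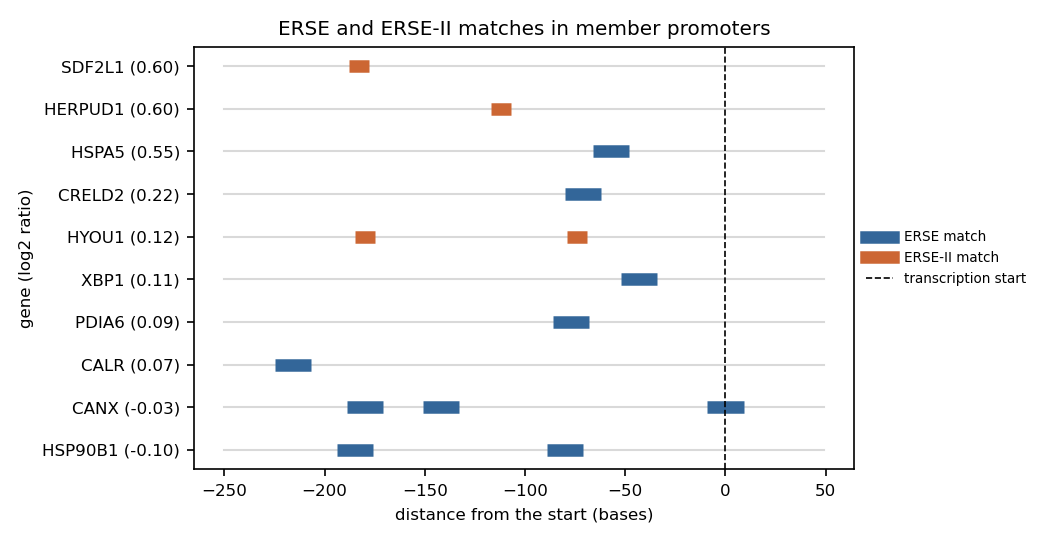
Position of exact ERSE (blue) and ERSE-II (orange) matches, in bases from the transcription start (dashed), in the promoters of the 10 members that hold one, ordered by log2 ratio (in parentheses). CANX has several starts in the reference, and 1 site is drawn at its distance from each of 3 of them. SDF2L1, HERPUD1 and HSPA5 are at the top, and HSP90B1, with 2 matches, is at the bottom.

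The other chaperones and cochaperones of the lumen differed less, by sums over isoforms, and in both directions. HSP90B1, the ER form of Hsp90 known as GRP94, whose locus also holds MIR3652, had 363 FPKM in control cells and 339 FPKM with LPA. HYOU1, a large Hsp70 relative that exchanges nucleotide on BiP, had 35.5 and 38.7 FPKM (0.12, or 0.69 by its leading isoform alone). Among the J-domain partners of BiP, DNAJB11 had 45.2 and 45.6 FPKM, and DNAJC3, which also acts on PERK as p58IPK, had 5.98 and 6.46 FPKM. DNAJC10, a J-protein with thioredoxin domains, had 17.6 and 16.1 FPKM (-0.12, or -0.35 by its leading isoform alone). DNAJB9, which delivers clients for degradation and helps BiP hold IRE1 inactive, had 8.25 and 6.57 FPKM, the lowest log2 ratio of the measured members at -0.29. Its counting interval without the pseudocount ran from -0.56 to -0.10. Over the 8 genes of this role the median was 0.05. By sums over isoforms, HSPA5 and SDF2L1 were thus higher without a like difference in their partners. The leading isoform of HYOU1 alone did show a difference of that size.

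The calnexin and calreticulin cycle, which retains glycoproteins by their sugar, had near-equal levels when isoforms were summed. CALR had 353 FPKM in control cells and 370 FPKM with LPA, and CANX, its membrane-bound relative, had 113 and 111 FPKM (-0.03, or -0.19 by its leading isoform alone). Genes of disulfide exchange were slightly higher in 5 of 6 cases, with a median of 0.11. P4HB, protein disulfide isomerase itself, had the highest level of the 33 genes, with 364 and 429 FPKM (log2 ratio 0.24). PDIA3, the isomerase that works with calnexin and calreticulin, had 109 and 129 FPKM (0.24). Its pseudogene PDIA3P1 was listed at about 2.2 FPKM in both libraries. How reads shared with it were assigned was not tested, and the deposited bounds of PDIA3 were wide, at 59.6 to 158 and 72.7 to 184 FPKM. PDIA6 had 90.0 and 95.8 FPKM and PDIA4 74.9 and 71.9 FPKM, both broad-range isomerases. ERO1L, the oxidase that recharges P4HB, had 19.3 and 20.7 FPKM, and ERP44, which returns such oxidases from the Golgi, 5.70 and 6.27 FPKM. All 6 lay inside the middle 95% of measured genes.

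CRELD2 and MANF encode small proteins that are induced by ER stress and partly secreted. CRELD2 had 20.8 FPKM in control cells and 24.5 FPKM with LPA (log2 ratio 0.22), and MANF had 78.7 and 86.2 FPKM (0.13). Both were higher, by less than the robust standard deviation of 0.24 among all measured genes.

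The genes of the sensors were low to intermediate in level, and XBP1 was higher, at percentile 81.8 of the levels of measured genes. ATF6 had 7.18 FPKM in control cells and 6.30 FPKM with LPA (-0.16). ERN1 was below the level of measured genes, with 0.248 and 0.344 FPKM from about 16.6 and 21.7 fragments, a fold of 1.39 whose counting interval on the log2 scale ran from -0.45 to 1.39, so a difference was not detectable at this depth. EIF2AK3, the gene of the sensor PERK and no member of the list, had 1.92 and 2.44 FPKM. XBP1 had 35.2 and 38.1 FPKM over both isoforms (0.11).

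The 2 XBP1 isoforms of the table differ by the stretch that IRE1 cuts out. The 26 bases lie in exon 4 at 28796124 to 28796149 of chromosome 22 in the GENCODE 29 model on GRCh38. Their loss shifts the reading frame, so that the coding sequence grows from 261 to 376 codons and gains the activation domain. The stretch is shown from the GENCODE transcripts that match both RefSeq isoforms, with 30 bases on either side and the removed bases in capitals. Bases repeat at the edges, so the same product can be written with the cut placed a few bases to either side.
Unspliced XBP1 (NM_005080, minus strand): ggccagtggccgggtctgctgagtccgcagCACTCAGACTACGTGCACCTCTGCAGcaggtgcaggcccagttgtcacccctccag
Spliced XBP1 (NM_001079539, minus strand): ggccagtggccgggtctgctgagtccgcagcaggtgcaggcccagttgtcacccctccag

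The isoform without these bases, which encodes the active factor, had 13.6 FPKM in control cells and 9.88 FPKM with LPA. The unspliced isoform had 21.5 and 28.2 FPKM. The spliced share of XBP1 was thus 38.8% in control cells and 25.9% with LPA. The deposited bounds overlapped for both, at 7.38 to 19.9 and 4.41 to 15.3 FPKM for the spliced form. The isoforms differ only by a 26-base gap, so few fragments tell them apart, and the alignment setting for so short an intron was not given in the sources used here. XBP1 summed over isoforms had a log2 ratio of 0.11, with a counting interval without the pseudocount from -0.006 to 0.24. HSPA5 was higher in the LPA library and the estimated spliced share of XBP1 was lower, and whether these values are related was not tested. Of genes with at least 2 isoforms at a mean of at least 1 FPKM, 47.3% had a share that moved by at least 10 percentage points.

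**Figure D4:**
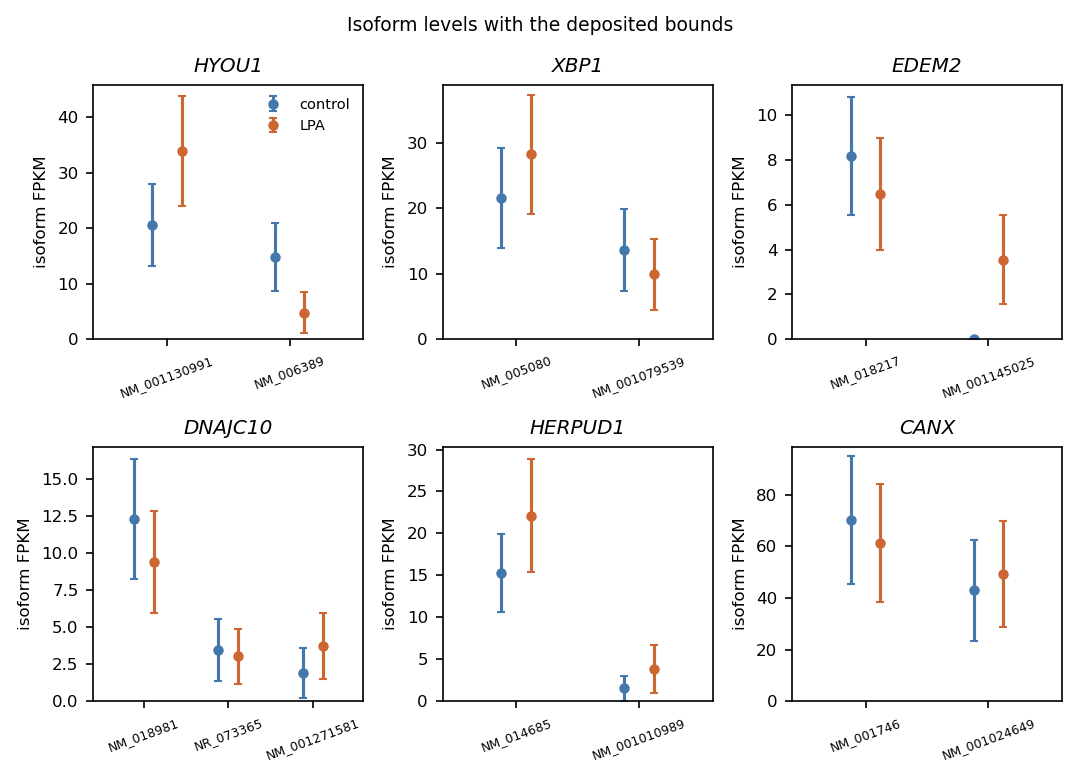
FPKM of each isoform with a mean of at least 1 FPKM (vertical axis, linear from 0) in the control (blue) and LPA (orange) libraries for 6 members, with bars for the lower and upper bounds of the deposited table. The bounds are separate for the second isoform of HYOU1 (14.8 and 4.78 FPKM) and of EDEM2 (0.00157 and 3.55 FPKM) and overlap for all other isoforms drawn.

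Across the members 40 isoforms had a mean of at least 1 FPKM, and 2 of them had separate bounds, where 4.61% of all such isoforms did. They belong to HYOU1 and EDEM2. In HYOU1 the isoform NM_006389 (4642 nt) had 14.8 FPKM in control cells and 4.78 FPKM with LPA, while NM_001130991 (4509 nt) had 20.6 and 33.9 FPKM. The first isoform's share went from 41.8% to 12.4% while the gene's sum differed little. EDEM2 encodes a mannosidase-like protein that starts the trimming of misfolded glycoproteins. Its isoform NM_001145025 (1802 nt) was at 0.00157 FPKM in control cells and 3.55 FPKM with LPA, and NM_018217 (1913 nt) had 8.19 and 6.47 FPKM. Of the 8 members with at least 2 isoforms at this level, 4 had an isoform whose share differed by at least 10 percentage points (HYOU1, XBP1, EDEM2 and DNAJC10). The same held for 47.3% of the 3667 such genes, so shifts of this size were common in these estimates. For SYVN1 the 2 isoforms differ by 3 bases in length (3051 and 3048 nt), and their lower bounds were 0 in both libraries.

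Of the 8 measured genes of ER-associated degradation, 4 had ratios above 0, with HERPUD1 (0.60) and EDEM2 (0.26) highest, and 4 below 0, with a median of 0.00. SYVN1, the ubiquitin ligase HRD1 of the pathway, had 15.0 FPKM in control cells and 15.4 FPKM with LPA. SEL1L, its partner and the scaffold that HERPUD1 joins, had 4.57 and 3.76 FPKM (log2 ratio -0.23). EDEM1 had 3.08 and 3.07 FPKM, EDEM2 8.87 and 10.8 FPKM, and EDEM3 1.53 and 1.44 FPKM, all of the same mannosidase-like family. The higher sum of EDEM2 rests on its second isoform, since the leading one was lower. The derlins, membrane proteins of the exit channel, included DERL1 with 31.0 and 27.8 FPKM and DERL2 with 9.59 and 9.65 FPKM. DERL3 had 0.0181 FPKM in control cells and a listed value of 0 with LPA, and was not detectable at this depth. HERPUD1 was the single member of this role outside the middle 95% of measured genes, and its partners SYVN1 and SEL1L did not share its ratio.

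At the entry to the ER, SEC61A1, the channel's pore, had 83.8 FPKM in control cells and 95.6 FPKM with LPA (log2 ratio 0.19). SEC61B, a small subunit of the channel, had 214 and 226 FPKM. SSR1, the alpha subunit of the translocon-associated TRAP complex, had 11.6 and 10.5 FPKM (-0.13). Summed over the 31 measured members, the level was 2319 FPKM in control cells and 2528 FPKM with LPA, a ratio of 1.09. P4HB, HSPA5 and SDF2L1 were among the genes with higher levels, and HSP90B1, one of the most abundant, had a lower one. The sum over all measured genes had a ratio of 0.988.

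The wider secretory pathway, in 8 lists that share no gene with the 33, had list medians between -0.12 and 0.12. Genes at a mean of at least 5 FPKM are named as the highest and lowest of a list. Across the 8 lists only FKBP11 was 1.5-fold higher, and SELK, KDELR3 and RCN2 were 1.5-fold lower. Of all measured genes 1.45% were 1.5-fold higher and 1.54% lower, so a few such genes do not set lists of this size apart. FKBP11, a prolyl isomerase of secretory cells, had 5.56 FPKM in control cells and 10.5 FPKM with LPA. SELK, a selenoprotein of the degradation complex, had 67.2 and 43.8 FPKM. KDELR3, a receptor that returns ER chaperones from the Golgi, had 27.3 and 16.9 FPKM, and RCN2, a calcium-binding protein of the lumen, 53.8 and 33.8 FPKM. Among other isomerases and oxidases (14 of 20 measured, median 0.09) the extremes were TXNDC11 (6.57 and 8.63 FPKM) and TMX1 (15.3 and 11.3 FPKM). Prolyl isomerases and luminal cofactors (21 of 22 measured) had a median of 0.04, with HSPA13 lowest at 8.10 and 6.22 FPKM. No other gene of these isomerase and cofactor lists passed 1.5-fold.

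Translocation and signal peptide removal (23 measured, median -0.02) ran from SRP72 (42.6 and 31.1 FPKM), part of the signal recognition particle, to the signal peptide peptidase HM13 (116 and 147 FPKM). N-glycan transfer and trimming (19 of 20 measured, median 0.03) ran from TMEM258 (585 and 453 FPKM) to KRTCAP2 (131 and 178 FPKM), both subunits of the oligosaccharyltransferase. Other degradation genes (29 measured) had a median of -0.04, with the ubiquitin-conjugating enzyme UBE2G2 highest at 20.4 and 26.9 FPKM. Transport between ER and Golgi (30 measured) had a median of 0.04, with the cargo receptor TMED9 highest at 113 and 129 FPKM. ER calcium genes (14 of 17 measured) had a median of -0.12, with ORAI1, a plasma membrane calcium channel opened by store depletion, highest at 27.1 and 33.4 FPKM. Other regulators of the unfolded protein response (20 of 22 measured, median 0.12) ran from UFM1 (20.1 and 15.6 FPKM) to CDK5RAP3 (37.9 and 48.2 FPKM), both of the ufmylation system. The members' own median of 0.08 lay within the range of these list medians.

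In the list of PERK and CHOP branch genes, 5 of 15 measured genes were 1.5-fold higher, against 1.45% of all measured genes. None was 1.5-fold lower (1.54% of all), and the median was 0.24. This list was chosen with earlier results of these data known, so its count is no independent result. ATF4 had 449 FPKM in control cells and 730 FPKM with LPA, CHAC1 4.53 and 19.0, ASNS 86.3 and 160, TRIB3 33.7 and 53.5, and CEBPG 11.9 and 19.7 FPKM. DDIT3, which encodes CHOP, had 16.9 and 19.4 FPKM (log2 ratio 0.19), and the death gene BBC3 was lowest at 57.7 and 46.6 FPKM (-0.30). The 5 genes past 1.5-fold thus include ATF4 but not the gene of CHOP. EIF2AK3 was kept in another list, and whether PERK lies behind these levels was not tested. Chaperones outside the ER gave a comparison: 21 cytosolic genes had a median of 0.01, from DNAJB4 (11.4 and 6.80 FPKM) to TCP1 (109 and 140 FPKM), and DNAJB4 was the single one past 1.5-fold. The 10 mitochondrial chaperones and proteases had a median of 0.24, with 8 above 0, but of 0.05 when the leading isoform stood in for each gene. They ran from DNAJC19 (29.4 and 22.1 FPKM) to DNAJA3 (27.6 and 37.3 FPKM), and none passed 1.5-fold.

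**Figure D5:**
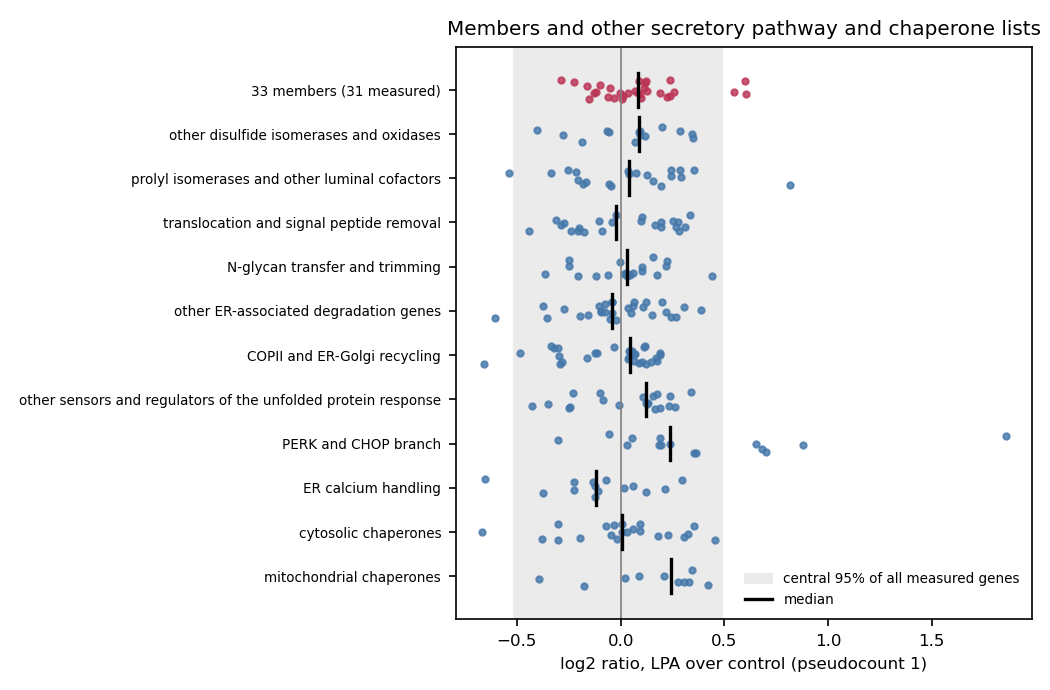
Log2 ratio of LPA over control with a pseudocount of 1 (horizontal axis) for the measured members (red, top row) and the measured genes of 11 other lists (blue), 1 point per gene, with black bars for the medians and a band for the middle 95% of all measured genes. Points beyond the band on the right are 5 genes of the PERK and CHOP branch, with CHAC1 farthest, FKBP11 and the 3 members HSPA5, SDF2L1 and HERPUD1.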

How the data were processed

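The deposited table gives FPKM for 63236 isoforms in a control and an LPA library of HCT-116 cells, each with bounds and a status, per the file headers. TopHat2 2.0.12, Cuffdiff 2.2.0, Cufflinks and bcl2fastq 2.16.0.10 were used with hg38, per the submitters' processing notes. Settings, the scaling between libraries and what level the bounds have were not given in the sources used here. RNA was selected by poly-A, and the TruSeq V2 kit does not mark strand.

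The 27 isoforms without an OK status, none of them of the 33 genes, were treated as missing. FPKM were summed per symbol, and genes with a mean of at least 1 FPKM were compared with a pseudocount of 1 (pandas 2.3.3). Fragment numbers come from the lowest peak of FPKM multiplied by length among 7264 genes with 1 isoform over 2000 nt. They ignore effective length and are approximate. The scripts were tested on simulated data.

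All 33 genes are named, with the highest, the lowest and every 1.5-fold gene of each other list at a mean of at least 5 FPKM, and ATF4, DDIT3 and EIF2AK3. Members and lists were chosen with earlier results of these data known. Other pseudocounts, filters, scalings and isoform rules were tried.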

Additional observations from a re-analysis of the deposited data

How the results depend on the processing

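The count of members at least 1.5-fold higher (2) was 0 with a pseudocount of 5 and 0 when the libraries were scaled to the same upper quartile, since SDF2L1 and HERPUD1 lie just past the limit. It was 2 in the other 8 settings, but when each gene was represented by its leading isoform the pair was HYOU1 and SDF2L1. The members' median ratio stayed between 0.06 and 0.09 in all 10 settings. With the leading isoform, HYOU1, DNAJC10, CANX, XBP1 and EDEM2 moved by more than 0.1 and the median of the mitochondrial chaperones was 0.05. Signs changed for EDEM2 and DERL2 with the leading isoform, and for DNAJB11 and DERL2 with upper quartile scaling. Over the other lists, the count of genes 1.5-fold lower was 1 with a pseudocount of 5 and 10 with the leading isoform. Members with separate bounds numbered 2 when every isoform at a mean of at least 1 FPKM counted, and 1 such isoform remained at a mean of at least 5 FPKM. With 1 mismatch allowed, 13 members held ERSE and 7 held ERSE-II, against 1.89% and 1.46% of all genes. Among measured genes these shares were 2.74% and 2.49%. No paired analysis was possible because each condition has 1 library. Depth limits ERN1 and DERL3.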
